A study of Rattus norvegicus with 12 samples.

Results

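Fgfrl1 and 8 genes of the fibroblast growth factor (FGF) system were followed in fracture hematoma, the clot and early repair tissue in a bone gap, of young and old rats whose femoral gap was held by a semi-rigid or a rigid external fixator. The 9 genes were 4 receptors (Fgfrl1, Fgfr1, Fgfr2 and Fgfr3) and 5 ligands (Fgf1, Fgf2, Fgf7, Fgf10 and Fgf18). They were 9 of 14217 genes with a probe set of 1 symbol on the array, and they had 17 of the 31042 probe sets tested. Each gene was represented by its probe set of highest mean signal over the 12 arrays. Fgfrl1 was selected on its measured values, because the difference between the fixations ran in opposite directions in old and young rats. The other 8 genes were set beside it to see whether receptors or ligands shared that pattern.

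Female Sprague-Dawley rats had the left femur cut at the midshaft and held at a gap of 1.5 mm, and the hematoma was taken on day 3. The 4 groups were old rats of 52 weeks with semi-rigid fixation (OSR), old rats of 52 weeks with rigid fixation (OR), young rats of 12 weeks with semi-rigid fixation (YSR) and young rats of 12 weeks with rigid fixation (YR). The fixator stood 15 mm from the bone in the semi-rigid and 7.5 mm in the rigid configuration. Every group had 3 arrays, each hybridized with the RNA of a separate pool of 3 animals, so that 9 animals stood behind a group. All rats were operated on, and no group was without an osteotomy.

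FGF ligands bind receptor tyrosine kinases at the cell surface together with heparan sulfate chains, and the activated receptors signal mainly through the Ras and MAP kinase pathway. Sprouty proteins and ERK phosphatases are induced by this signal and restrain it. Fgfrl1 binds FGF ligands and heparin but lacks the tyrosine kinase domain of the other receptors. In bone, FGF signalling is known to act on the growth and differentiation of skeletal progenitors, chondrocytes and osteoblasts. Sdc2, Hpse, Spry2 and other partners of the pathway were described from 5 further lists.

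All signals are given as log2 of the deposited signal intensity, for which each array had been scaled to a common trimmed mean. The median probe set had a mean log2 signal of 7.16, and genes with a mean under this value are called dim. Fgfrl1, Fgfr1, Fgfr2, Fgfr3 and Fgf7 had means that reached the median, while Fgf1, Fgf2, Fgf10 and Fgf18 were dim. None of the 204 member values was at the floor of 1 set before taking log2. Signals of different probe sets depend on their probes and are not compared between genes. With 3 arrays per group, the number of arrays limited the precision of every difference.

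The labelled tissue was checked against marker genes of cells that a hematoma can hold. Genes of monocytes and macrophages (Lyz2, Cd68), red cells (Hbb, Alas2), platelets (Pf4) and fibroblasts (Col3a1, Col1a2) had mean log2 signals of 13.63 to 15.24, and Acta1 of skeletal muscle had 13.35. Of 9 measured cartilage genes 7 were dim, the others being Col11a1 (9.92) and Acan (8.62), and of 6 measured osteoblast genes 4 were dim, the others being Spp1 (15.54), which macrophages also make, and Ibsp (9.27). The 3′ to 5′ log2 ratio of the Gapdh control probe sets, a sign of RNA integrity, was 6.69 on array YSR 1 and 2.95 on array OR 1, against 0.33 to 1.59 on the 10 others. Among those 10, the YR arrays had 1.02, 1.59 and 1.38, and the arrays of the other groups had 0.33 to 0.49. The ratio thus differed with the YR group, and its part in comparisons with YR cannot be told apart from the group. Values without YSR 1 and OR 1 are given beside member results that leaving them out moved. In such bulk tissue fewer cells of a type and less RNA per cell cannot be told apart.

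The log2 signal of Fgfrl1 was 7.31, 8.17 and 6.27 on the OSR arrays and 8.07, 8.50 and 9.21 on the OR arrays. On the YSR arrays it was 8.18, 8.64 and 7.98, and on the YR arrays it was 6.50, 6.62 and 6.54. In young rats every semi-rigid array lay above every rigid array. In old rats the order of the means was turned round, but the highest OSR array exceeded the lowest OR array, so that these groups overlapped.

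The deposited signals show the same on a linear scale. Fgfrl1 had a geometric mean of 152.1 in OSR and 386.4 in OR, and of 307.6 in YSR and 93.9 in YR. On the log2 scale the group means were 7.25 ± 0.95 in OSR, 8.59 ± 0.57 in OR, 8.26 ± 0.34 in YSR and 6.55 ± 0.06 in YR (SD, n = 3 each). From high to low the order was OR, YSR, OSR and YR, and each group overlapped its neighbour in that order. The array OSR 3 lay below all YR arrays, whereas OSR 2 lay within the range of the YSR arrays.

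**Figure D1:**
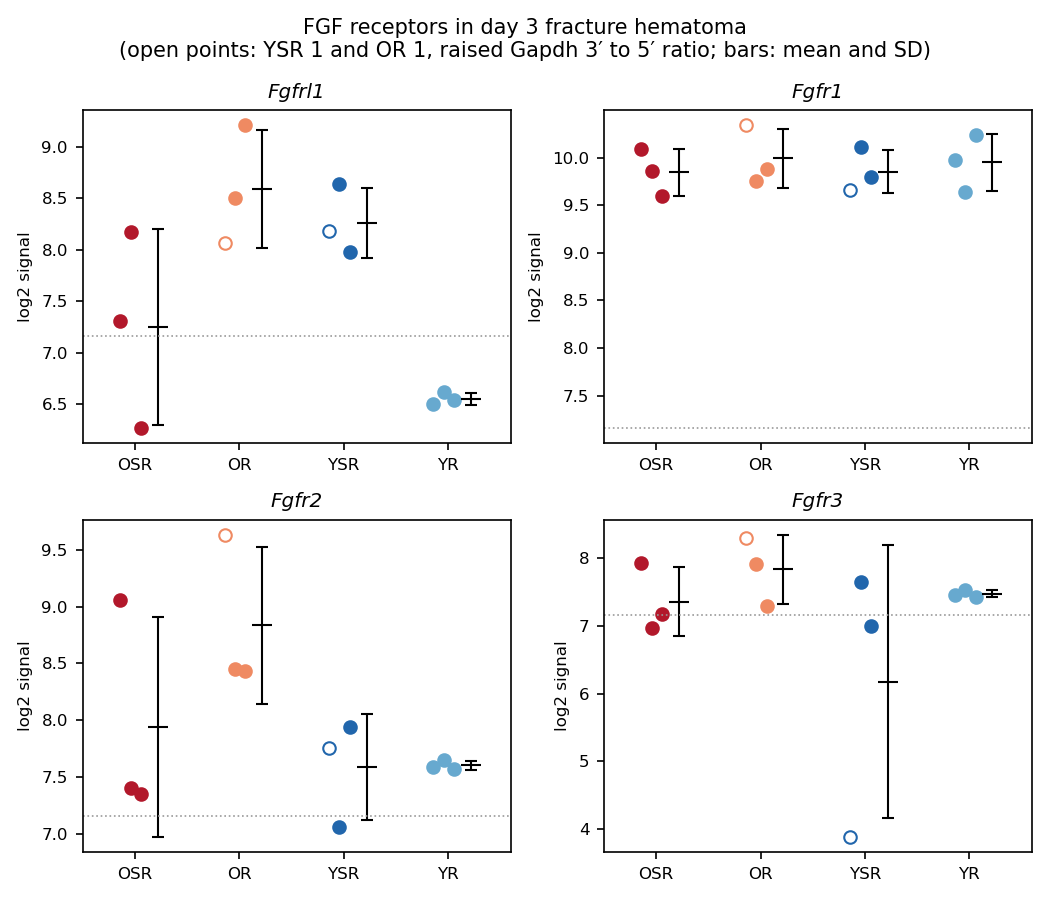
Log2 signal of Fgfrl1 and 3 FGF receptors on each array, by group (OSR, OR, YSR, YR; 3 arrays each, a point per array, black bars for the mean and SD). Open points are YSR 1 and OR 1, the dotted line is the median probe set at 7.16, and each panel has its own scale. The Fgfrl1 arrays of YR sit together between 6.50 and 6.62, below all OR and YSR arrays.

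The difference OSR minus OR of Fgfrl1 was -1.35 (SE 0.43), a fold of 0.394, and the difference YSR minus YR was 1.71 (SE 0.43), a fold of 3.28. The interaction, which is OSR minus OR less YSR minus YR, was -3.06 (SE 0.60). These contrasts selected the gene, so they are a description and carry no test. Of 12367 probe sets with 1 symbol whose mean reached the median, 3 had a larger absolute interaction than Fgfrl1. This place comes from the contrast that selected the gene and is no support for the pattern.

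The age differences of Fgfrl1 under each fixation follow from the same 4 means. OSR minus YSR was -1.02 (SE 0.43) and OR minus YR was 2.04 (SE 0.43), so that old rats had the lower mean under semi-rigid and the higher mean under rigid fixation. OR and YR did not overlap, while OSR and YSR did. The average over both fixations was not used in the selection and could be tested. Old minus young was 0.51 (95% interval -0.14 to 1.16), with an adjusted p = 0.659 from limma.

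Leaving out single arrays moved the size of these Fgfrl1 differences and turned none of them. Without array OSR 3 the difference OSR minus OR was -0.86 and the interaction -2.57, and without OSR 2 they were -1.80 and -3.52. With YSR 1 and OR 1, the arrays of high Gapdh ratio, left out, the differences were -1.60 for OSR minus OR and 1.75 for YSR minus YR, and the interaction was -3.36. The YR arrays, with Gapdh ratios of 1.02, 1.59 and 1.38, stayed in this setting. Fgfrl1 was measured by a single probe set, so no other probe set of the gene could be compared with it.

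The markers of fibroblasts and of endothelium ran in part with Fgfrl1. All 12 fibroblast and mesenchymal genes were measured, none was dim and none was at the floor, and their summed signal was 94059 to 152242 in OSR, 140375 to 170922 in OR, 117370 to 128831 in YSR and 95836 to 141232 in YR. Of these 12 genes, 4 were lower in OSR than in OR and 8 were higher in OR than in YR at an unadjusted p under 0.05, against 1 that was higher in YSR than in YR, and 0 passed the adjusted test of limma. Over all probe sets the shares at this unadjusted p were 5.26% in OSR minus OR, 8.34% in OR minus YR and 4.37% in YSR minus YR. The sum of the 7 measured endothelial genes, with none dim, was 4948 to 9658 in OSR, 7404 to 13977 in OR, 4728 to 5749 in YSR and 5343 to 6432 in YR. At the same unadjusted p, 4 of these 7 were lower in OSR than in OR and 6 were higher in OR than in YR. In YSR minus YR 0 of the 7 passed, and 0 passed the adjusted test of limma. The high sums in OR thus lay beside the high Fgfrl1 signals in OR, but neither list stood higher on all YSR arrays than on all YR arrays. The part of these cells in the Fgfrl1 result was not tested.

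The sum of the 10 skeletal muscle genes was 11264 to 101141 in OSR, 16745 to 62058 in OR, 28888 to 59770 in YSR and 40024 to 64395 in YR. The muscle genes thus varied more between the arrays of old rats than between those of young rats. The sum of the 9 measured monocyte and macrophage genes was 64472 to 84909 in OSR, 58828 to 85476 in OR, 72839 to 90511 in YSR and 76578 to 91140 in YR. The sum of the 6 measured adipocyte genes, of which 3 were dim, was 13861 to 20600 in OSR, 19196 to 24435 in OR, 15908 to 28903 in YSR and 19052 to 22771 in YR. Fabp4 and Lpl, with means of 13.21 each, weighed most in this sum, so that it hardly shows the adipocyte genes of lower signal. The median adipocyte difference was -1.05 in OSR minus OR, 0.31 in YSR minus YR and -1.52 in the interaction, the signs of Fgfrl1. At an unadjusted p under 0.05 by limma, 1 of the 6 was lower in OSR than in OR. In OR minus YR 3 were higher, of which 1 was not dim, and 0 passed in YSR minus YR or the interaction. In old minus young 3 of the 6 adipocyte genes were higher, of which 1 was not dim, and 0 were lower. Among the 9 monocyte and macrophage genes, Lyz2 (mean 15.14) weighed most in the sum. By the same p, 2 were higher in OSR than in OR, 4 were lower in OR than in YR and 0 passed in YSR minus YR. In the interaction 1 passed, Mrc1 at 0.84 (SE 0.28). No gene of either list passed the adjusted test of limma. Over all probe sets these shares were 5.26% in OSR minus OR, 8.34% in OR minus YR, 4.37% in YSR minus YR, 3.8% in the interaction and 8.59% in old minus young. The part of muscle, macrophage and adipocyte genes in the results of the FGF genes was not tested.

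Across the whole array the tests gave few calls, which is the background for the 8 other genes. At an adjusted p under 0.05, limma called 0% of the 31042 probe sets in OSR minus OR, in YSR minus YR, in the interaction and in semi-rigid minus rigid. It called 0.00322% (1 probe set) in OSR minus YSR and in OR minus YR, and 0.00644% (2 probe sets) in old minus young. At an unadjusted p under 0.05 the shares were 5.26% in OSR minus OR, 4.37% in YSR minus YR, 3.8% in the interaction, 4.36% in OSR minus YSR, 8.34% in OR minus YR, 8.59% in old minus young and 5.73% in semi-rigid minus rigid. The methods' test at an unadjusted p under 0.05 with a fold beyond 2 gave 467 probe sets in OSR minus OR, 520 in YSR minus YR, 703 in the interaction, 472 in OSR minus YSR, 795 in OR minus YR, 642 in old minus young and 467 in semi-rigid minus rigid, and 0 in each after Benjamini-Hochberg adjustment.

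Of the 8 other FGF genes, 0 passed the adjusted test of limma in any of the 7 comparisons. At an unadjusted p under 0.05 there was Fgf7 in YSR minus YR and in the interaction, Fgfr2 in OR minus YR, and Fgfr2 and Fgf10 in old minus young, while 0 of 8 passed in OSR minus OR, OSR minus YSR and semi-rigid minus rigid. In the interaction, 1 of 8 thus stood beside a background of 3.8%. The median difference of the 8 genes was -0.31 in OSR minus OR, -0.18 in YSR minus YR and -0.02 in the interaction, beside -0.01, 0.02 and -0.03 over all probe sets. Comparisons that share a group, such as OSR minus OR and OR minus YR, share its arrays.

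By the brightest probe set, none of the 8 genes had the signs of Fgfrl1, negative in OSR minus OR and positive in YSR minus YR. With the mean of all probe sets of a gene, 2 of the 8 had them, namely Fgfr2 with -0.37 in OSR minus OR and 0.82 in YSR minus YR and Fgf1 with -0.80 and 0.85, each with an adjusted p of 0.925 or more from limma. Fgf7 was the single gene of the 8 with opposite signs by the brightest probe set on all arrays, and its signs ran the other way. Opposite signs in either direction were seen in 4 of the 8 by the mean of all probe sets. They were also seen in 4 of the 8 by the brightest probe set without YSR 1 and OR 1. Without YSR 1 and OR 1, 1 of the 8 genes had the signs of Fgfrl1, and this was Fgf2. Over all probe sets, 48.78% had a positive difference in OSR minus OR and 52.61% in YSR minus YR. The share with a given pair of signs was not computed, so these counts of signs are a description. Some signs rest on differences far smaller than their SE, such as -0.02 (SE 0.45) for Fgfr2 in YSR minus YR. The plot of the fixation difference in old against young rats shows, by the brightest probe sets, Fgfrl1 alone among the 9 genes in its quadrant.

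**Figure D2:**
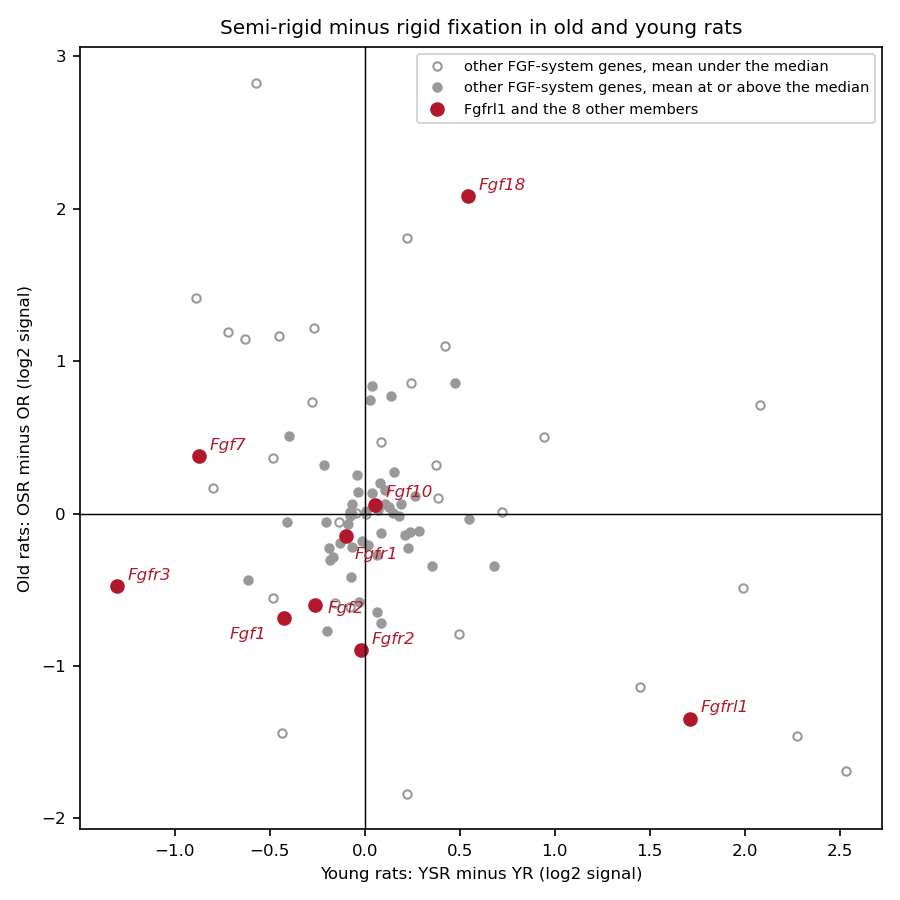
Semi-rigid minus rigid difference in log2 signal in young rats (x axis, YSR minus YR) and in old rats (y axis, OSR minus OR) for the 9 genes (red) and 81 other FGF-system genes (grey; open points are dim). Fgfrl1 lies at 1.71 in young and -1.35 in old rats, and the grey points beyond it in that quadrant are dim.

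Among the receptors, Fgfr1, a receptor kinase of mesenchymal cells and osteoprogenitors, hardly varied. On the log2 scale it gave 10.09, 9.86 and 9.60 in OSR, 10.34, 9.76 and 9.88 in OR, 9.66, 10.11 and 9.80 in YSR, and 9.98, 9.64 and 10.24 in YR. All groups overlapped one another. The interaction was -0.05 (95% interval -0.68 to 0.58, adjusted p = 0.997 from limma), and old minus young was 0.02 (95% interval -0.30 to 0.33).

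A second Fgfr1 probe set did not run with the first over the 12 arrays (r = 0.05). It gave log2 signals of 8.76, 9.11 and 8.39 in OSR, 7.05, 8.64 and 8.60 in OR, 5.36 on YSR 1 and up to 9.01 on the other YSR arrays, and 8.54, 7.67 and 7.56 in YR. The lowest values were those of YSR 1 and OR 1, the arrays of high Gapdh ratio. Its interaction was 0.79 (95% interval -1.65 to 3.22, adjusted p = 0.99 from limma).

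Fgfr2, the receptor whose activating mutations cause premature fusion of skull sutures in humans, was highest in old rats with rigid fixation. The log2 signal was 9.06, 7.41 and 7.35 in OSR, 9.63, 8.45 and 8.43 in OR, 7.76, 7.06 and 7.94 in YSR, and 7.59, 7.65 and 7.57 in YR. All OR arrays lay above all YR arrays, and the other pairs of groups that differ in 1 factor overlapped. OSR 1 and OR 1 held the highest values of their groups.

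OR minus YR of Fgfr2 was 1.23 (95% interval 0.26 to 2.21, a fold of 2.35), with an unadjusted p = 0.0174 and an adjusted p = 0.485 from limma. Old minus young was 0.79 (SE 0.32, adjusted p = 0.507 from limma), with OSR minus YSR at 0.35 (SE 0.45). These differences were 0.83 for OR minus YR and 0.64 for old minus young without YSR 1 and OR 1, with unadjusted p of 0.0974 and 0.0766 from limma. The interaction was -0.88 (95% interval -2.26 to 0.50), of the sign of Fgfrl1, but YSR minus YR was -0.02 (SE 0.45), while OSR minus OR was -0.90 (SE 0.45). Without YSR 1 and OR 1 the interaction was -0.40 and OSR minus OR was -0.50 (unadjusted p of 0.555 and 0.302 from limma). Single arrays moved both as well. Without OSR 1 the interaction was -1.44 and OSR minus OR was -1.45, with unadjusted p of 0.0154 and 0.00244 and adjusted p of 0.939 and 0.347 from limma, and without OR 1 they were -0.48 and -0.50.

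The other 4 probe sets of Fgfr2 were dim, with r of 0.05 to 0.32 to the first over 12 arrays. Their interactions were -1.32, -1.58, -1.28 and -0.88, each with an SE above 1, and 3 of the 4 had the signs of Fgfrl1 in both ages. Of all 8 dimmer probe sets of the members, 5 had these signs, namely these 3 and both further probe sets of Fgf1. The share of all probe sets with these signs was not computed. None of the 8 dimmer probe sets passed the adjusted test in any comparison. The 4 dim probe sets of Fgfr2 gave 0.10, -0.35, -0.10 and 0.00 in old minus young, and 0.76, 0.44, 0.54 and 0.44 in OR minus YR. By the mean of all probe sets of Fgfr2, old minus young was 0.09 (unadjusted p = 0.853 from limma). The difference of 0.79 in old minus young thus rested on the brightest probe set.

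Fgfr3, which restrains the growth of chondrocytes, depended on a single array. The Fgfr3 signal was 7.93, 6.96 and 7.17 in OSR, 8.30, 7.91 and 7.29 in OR, 3.88, 7.65 and 6.99 in YSR, and 7.46, 7.53 and 7.43 in YR. The value of 3.88 belonged to YSR 1, and without it all arrays lay between 6.96 and 8.30. The interaction was 0.83 (95% interval -1.43 to 3.08, adjusted p = 0.99 from limma) and -0.09 (SE 0.51) without YSR 1 and OR 1. YSR minus YR of Fgfr3 was -1.30 (SE 0.74) and likewise -0.16 (SE 0.36) without them.

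**Figure D3:**
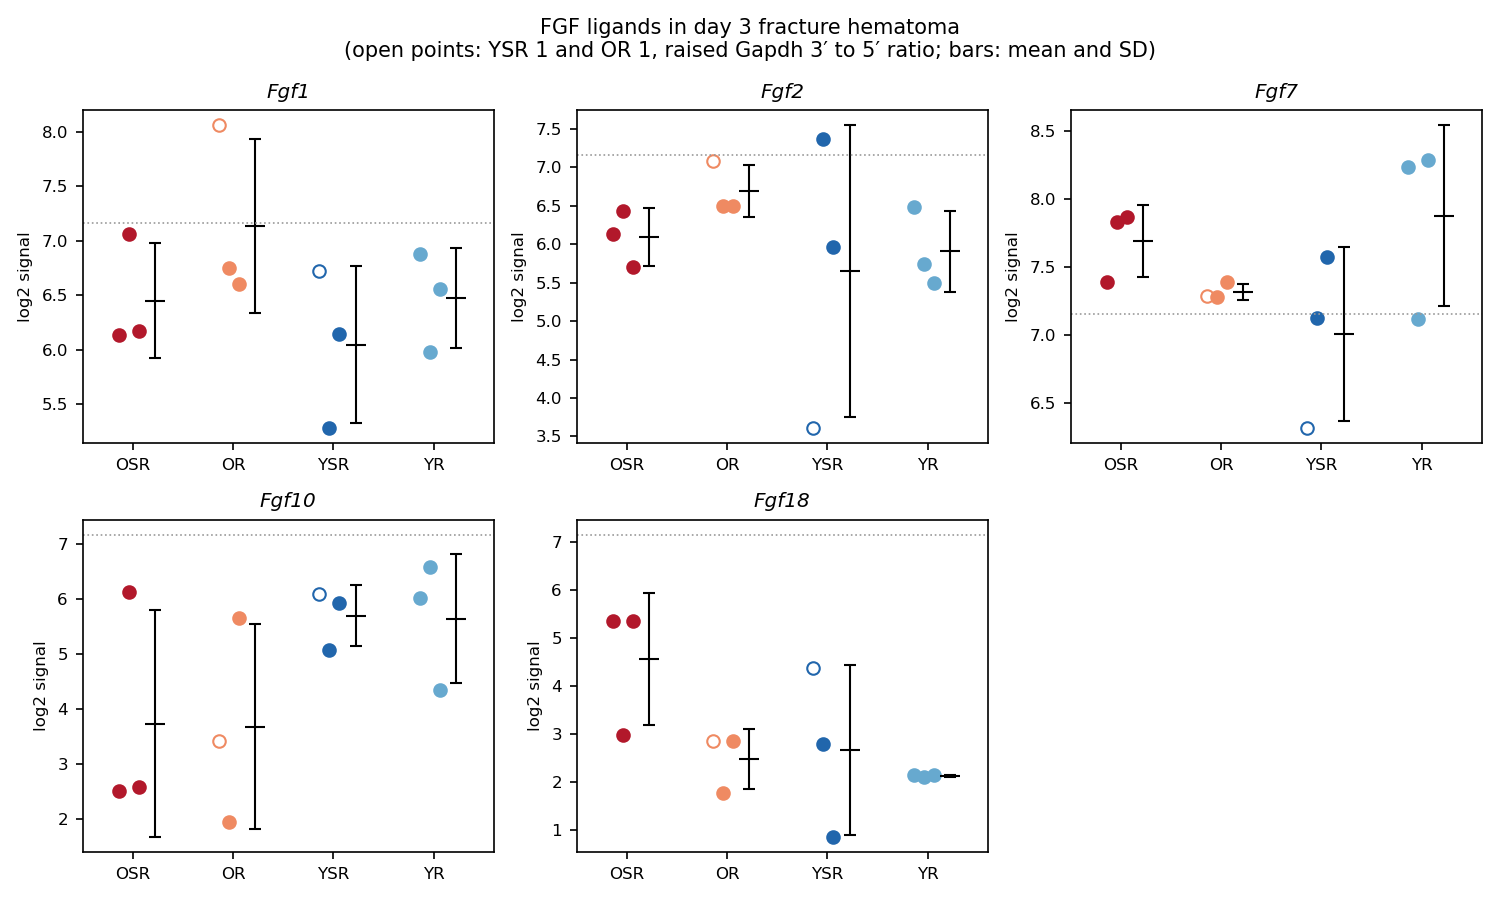
Log2 signal of 5 FGF ligands on each array, by group (OSR, OR, YSR, YR; 3 arrays each, a point per array, black bars for the mean and SD). Open points are YSR 1 and OR 1, the dotted line is the median probe set at 7.16, and each panel has its own scale. For Fgf2 the YSR arrays spread from 3.61 to 7.37, and for Fgf18 the OSR arrays lie above the OR arrays.

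Among the ligands, Fgf7, the keratinocyte growth factor that mesenchymal cells make and an epithelial form of Fgfr2 binds, ran against Fgfrl1. The Fgf7 signal was 7.39, 7.83 and 7.87 in OSR and 7.29, 7.28 and 7.39 in OR. In YSR it was 6.32, 7.13 and 7.58, and in YR it was 8.24, 7.12 and 8.29. In old rats the semi-rigid arrays lay at or above the rigid ones, and in young rats both arrays YR 1 and YR 3 lay above all YSR arrays while YR 2 lay among them.

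OSR minus OR of Fgf7 was 0.38 (95% interval -0.44 to 1.19) and YSR minus YR was -0.87 (95% interval -1.69 to -0.06, a fold of 0.547). The interaction was 1.25 (SE 0.53), with an unadjusted p = 0.0361 and an adjusted p = 0.99 from limma. Without YSR 1 and OR 1, YSR minus YR was -0.53 and the interaction 0.89 (SE 0.52), with an unadjusted p = 0.117 from limma. Over the 12 arrays Fgf7 had r = -0.52 with Fgfrl1 (rho = -0.58), as a description over arrays of 4 groups. Old minus young of Fgf7 was 0.06 (95% interval -0.52 to 0.64).

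Fgf2, basic FGF, which is stored on heparan sulfate in the matrix, was dim and rested on YSR 1. The Fgf2 signal was 6.14, 6.44 and 5.70 in OSR, 7.09, 6.50 and 6.50 in OR, 3.61, 7.37 and 5.97 in YSR, and 6.49, 5.75 and 5.49 in YR. The lowest value was on YSR 1 and the highest on YSR 2. OSR arrays lay below all OR arrays, and OR arrays lay above all YR arrays by a narrow margin.

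OSR minus OR of Fgf2 was -0.60 (SE 0.75, adjusted p = 0.939 from limma) and YSR minus YR was -0.26 (SE 0.75). The interaction was -0.34 (95% interval -2.64 to 1.96). Without YSR 1 and OR 1, OSR minus OR was -0.40, YSR minus YR was 0.76 and the interaction was -1.16 (SE 0.76, adjusted p = 0.998 from limma). The r of Fgf2 with Fgfrl1 was 0.25 over 12 arrays and 0.69 over the 10 arrays left. By rank, the rho of Fgf2 with Fgfrl1 was 0.55 over all 12 arrays. By r, Fgf2 was thus the gene whose likeness to Fgfrl1 depended most on YSR 1 and OR 1. It did not pass a test in either setting.

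Fgf1, acidic FGF, which binds all 4 FGF receptor kinases, was dim and ran high on OR 1. Its log2 signal was 6.13, 7.06 and 6.17 in OSR, 8.06, 6.75 and 6.60 in OR, 6.72, 5.28 and 6.14 in YSR, and 6.88, 5.98 and 6.56 in YR. All groups overlapped their neighbours by fixation and by age. The interaction was -0.26 (95% interval -1.84 to 1.32, adjusted p = 0.994 from limma), and it was 0.54 (SE 0.70) without YSR 1 and OR 1.

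The 2 further Fgf1 probe sets had interactions of -2.99 (SE 1.54) and -1.71 (SE 1.31), with adjusted p = 0.99 from limma for both. Their means over the 12 arrays were 4.64 and 3.90 on the log2 scale. YR 2 held the lowest value of both, at 1.9 and 3.2 on the linear scale.

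Fgf10, which drives limb bud outgrowth in mice, was dim and scattered. Its log2 signal was 2.51, 6.12 and 2.58 in OSR, 3.42, 1.96 and 5.66 in OR, 6.09, 5.07 and 5.93 in YSR, and 6.01, 6.58 and 4.34 in YR. Of the 6 arrays of old rats, 4 lay below all arrays of young rats, and OSR 2 and OR 3 lay among the young. Old minus young was -1.96 (95% interval -3.67 to -0.24, a fold of 0.258), with an unadjusted p = 0.0283 and an adjusted p = 0.509 from limma. It was -1.79 without YSR 1 and OR 1 (unadjusted p = 0.0822 from limma), -2.55 to -1.53 on leaving out single arrays, and -1.03 when 16 was added to each signal before taking log2. The interaction was 0.00 (SE 1.58).

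Fgf18, a ligand of Fgfr3 in growing cartilage and bone, was dim, with 4% of all probe sets below its mean. Its log2 signal was 5.37, 2.98 and 5.36 in OSR, 2.85, 1.77 and 2.85 in OR, 4.38, 2.79 and 0.85 in YSR, and 2.14, 2.10 and 2.14 in YR. All OSR arrays lay above all OR arrays, though OSR 2 by a small margin. OSR minus OR was 2.08 (95% interval -0.01 to 4.18), with an unadjusted p = 0.0511 and an adjusted p = 0.901 from limma, and YSR minus YR was 0.54 (SE 0.97). The interaction of Fgf18 was 1.54 (95% interval -1.42 to 4.50), and it was 0.63 without YSR 3, 2.39 without YSR 1 and 2.33 without OSR 2. With 16 added to each signal, OSR minus OR was 0.97 and the interaction 0.69. Leaving out YSR 1 and OR 1, the interaction of Fgf18 was 2.57 (SE 1.45) and YSR minus YR was -0.31. OSR minus OR was then 2.26 (SE 1.03) and OSR minus YSR was 2.75 (SE 1.03), with adjusted p of 0.89 and 0.999 from limma.

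**Figure D4:**
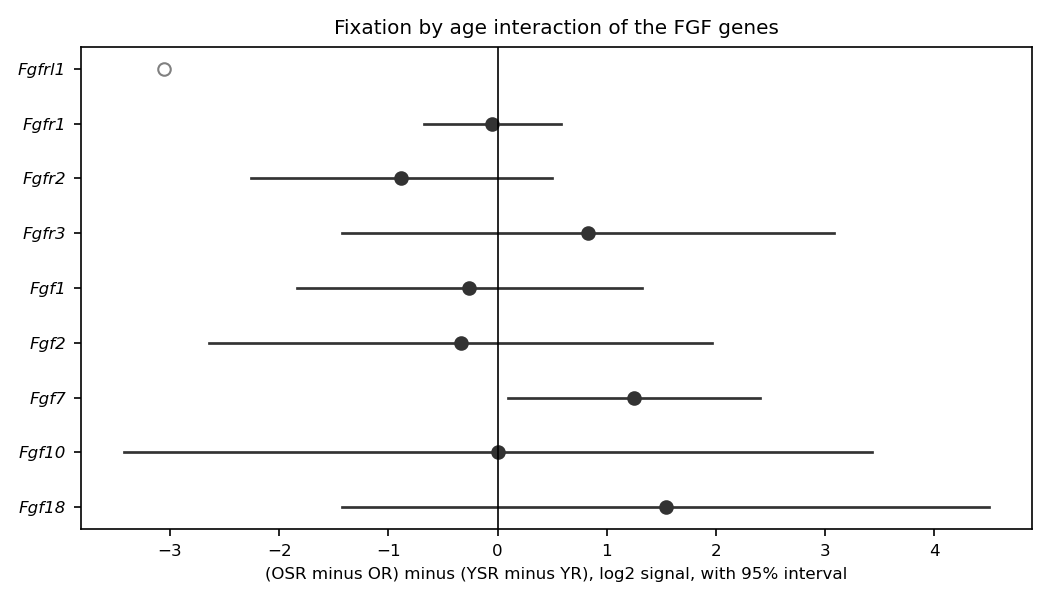
Fixation by age interaction of the 9 genes, OSR minus OR less YSR minus YR, in log2 signal (x axis), a point per gene with its 95% interval from limma. Fgfrl1 (open point, -3.06) is drawn without an interval because this contrast selected it, and of the 8 other intervals that of Fgf7 alone does not hold 0, running from 0.09 to 2.40.

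The widths of these intervals differ between the genes. For Fgfr1 the 95% interval of the interaction ran from -0.68 to 0.58 and for Fgf7 from 0.09 to 2.40, while that of Fgf10 ran from -3.42 to 3.43. For the 4 dim genes the intervals held changes of 1 log2 unit in both directions.

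Averaged over fixation, 7 of the 8 other genes had the higher mean in old rats, with a median difference of 0.58. Over all probe sets, 53.06% had the higher mean in old rats, with a median difference of 0.02. The differences were small for Fgfr1 and Fgf7, and both turned negative without YSR 1 and OR 1 (-0.12 and -0.11), as did Fgf7 after quantile normalization (-0.02). The other positive differences were 0.79 for Fgfr2, 0.77 for Fgfr3, 0.53 for Fgf1, 0.62 for Fgf2 and 1.13 for Fgf18. Those of Fgfr3 and Fgf2 were 0.08 and 0.01 without the same arrays. By the mean of all probe sets, those of Fgfr2 and Fgf1 were 0.09 and -0.04. Averaged over age, semi-rigid minus rigid ran from -0.89 to 1.31 among the 8 genes, with adjusted p of 0.845 or more from limma.

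The rest of the pathway was described by 81 measured genes of 5 lists, namely other ligands with Fgfr4, co-receptors and heparan sulfate proteoglycans, enzymes of heparan sulfate, adaptors and kinases, and feedback inhibitors with target genes. By limma 0 of the 81 passed the adjusted test in any comparison. At an unadjusted p under 0.05 there were 9 (11.1%) in OSR minus OR, 4 (4.94%) in YSR minus YR, 8 (9.88%) in the interaction, 2 (2.47%) in OSR minus YSR, 12 (14.8%) in OR minus YR, 10 (12.3%) in old minus young and 8 (9.88%) in semi-rigid minus rigid. The background shares given above were 5.26%, 4.37%, 3.8%, 4.36%, 8.34%, 8.59% and 5.73% in the same order. Leaving out YSR 1 and OR 1, the counts were 7, 2, 7, 1, 15, 10 and 4. The background shares are those of the fit to 12 arrays, so these last counts have no matching share beside them.

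The median difference of the 81 genes was 0.00 in OSR minus OR, 0.04 in YSR minus YR and -0.05 in the interaction. Over all probe sets these medians were -0.01, 0.02 and -0.03. Of the 8 genes at an unadjusted p under 0.05 in the interaction, 5 were negative like Fgfrl1 and 3 were positive, and 3 of the 8 were dim.

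Among co-receptors, Sdc2, which carries heparan sulfate chains on mesenchymal cells, was highest in old rats with rigid fixation. Sdc2 had log2 signals of 10.39, 10.31 and 9.44 in OSR, 10.95, 10.48 and 10.86 in OR, 9.91, 9.82 and 9.99 in YSR, and 9.77, 9.53 and 10.16 in YR. All OR arrays lay above all arrays of the 3 other groups. The interaction was -0.81 (SE 0.34, adjusted p = 0.99 from limma), with OSR minus OR at -0.72 (SE 0.24) and YSR minus YR at 0.09 (SE 0.24). Of the 17 co-receptor and proteoglycan genes measured of 19 listed, Sdc2 was the 1 gene at an unadjusted p under 0.05 in the interaction, and the median was -0.22. The bright syndecans Sdc4 and Sdc1 had interactions of 0.12 (SE 0.20) and 0.01 (SE 0.17).

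Sdc4, a syndecan of focal adhesions, had its lower values in old rats. Its log2 signal was 11.90, 12.35 and 12.32 in OSR, 11.89, 11.85 and 12.23 in OR, 12.64, 12.56 and 12.43 in YSR, and 12.47, 12.50 and 12.41 in YR. All 6 arrays of old rats lay below all 6 arrays of young rats. Old minus young was -0.41 (SE 0.10), the lowest adjusted p of the 81 genes at 0.231 from limma. This difference was singled out after its values were seen.

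Among the enzymes of heparan sulfate, 16 of 19 listed genes were measured, and 3 had an unadjusted p under 0.05 in the interaction. Hpse, heparanase, which cuts heparan sulfate chains, had log2 signals of 10.27, 10.72 and 10.98 in OSR, 10.07, 9.62 and 10.04 in OR, 10.65, 10.76 and 10.30 in YSR, and 10.44, 10.62 and 10.57 in YR. The OR arrays lay below all others. Its interaction was 0.72 (SE 0.27, adjusted p = 0.99 from limma), opposite in sign to that of Fgfrl1.

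Ndst2, an N-sulfotransferase of heparan sulfate, had an interaction of -1.02 (SE 0.41), and Hs2st1, its 2-O-sulfotransferase, had -0.45 (SE 0.19), both with adjusted p = 0.99 from limma. Ndst2 had log2 signals of 9.57, 9.78 and 9.05 in OSR, 10.17, 10.06 and 9.20 in OR, 10.47, 9.74 and 9.67 in YSR, and 9.56, 9.02 and 9.24 in YR. As for Fgfrl1, all YSR arrays of Ndst2 lay above all YR arrays, while OSR and OR overlapped. Hs2st1 had 10.29, 10.13 and 10.06 in OSR, 10.34, 10.50 and 10.31 in OR, 9.94, 10.27 and 10.30 in YSR, and 10.06, 9.88 and 9.90 in YR. For Hs2st1 the OR arrays lay above all others. The sulfatase Sulf2 and the exostosin Extl3, the brightest genes of the list, had interactions of 0.12 (SE 0.25) and 0.30 (SE 0.23), and the median of the list was -0.04.

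Feedback inhibitors and target genes, 15 measured of 18 listed, had 1 gene at an unadjusted p under 0.05 in the interaction and a median of -0.06. This was Spry2, a sprouty inhibitor of receptor kinase signalling, with log2 signals of 8.72, 9.26 and 8.82 in OSR, 7.86, 7.85 and 8.58 in OR, 8.61, 8.53 and 8.86 in YSR, and 8.87, 8.48 and 8.54 in YR. All OSR arrays lay above all OR arrays, and YSR and YR overlapped. The interaction was 0.80 (SE 0.33, adjusted p = 0.99 from limma), with OSR minus OR at 0.84 (SE 0.23). At an unadjusted p under 0.05 by limma, 2 of the 15 were higher in OSR than in OR and 1 was lower. Beside Spry2 the higher gene was Etv1 at 0.86 (SE 0.28). The lower gene was another sprouty gene, Spry1, at -0.77 (SE 0.28). The share over all probe sets was 5.26%, and Etv1 and Spry1 were named after their values were seen. The early response genes Fos and Egr1 had interactions of -0.58 (SE 0.33) and -0.17 (SE 0.39).

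Adaptors and kinases, 15 measured of 21 listed, had 0 genes at an unadjusted p under 0.05 in the interaction by limma and a median of -0.05. The adaptor Shc1 and the kinase Map2k1, the brightest of the list, had interactions of 0.05 (SE 0.15) and 0.09 (SE 0.22).

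Of the other ligands with Fgfr4, 18 of 19 listed were measured and 17 were dim. The 3 dim genes with an unadjusted p under 0.05 in the interaction were Fgf8 at 3.40 (SE 1.27), Fgf5 at -3.73 (SE 1.62) and Fgf22 at -4.22 (SE 1.56), named after their values were seen. Fgf8, a ligand of embryonic limb and brain, had log2 signals of 5.62, 5.10 and 4.99 in OSR and 2.43, 2.20 and 2.58 in OR, against 5.38, 2.74 and 6.09 in YSR and 5.98, 6.18 and 3.77 in YR. All OSR arrays of Fgf8 lay above all OR arrays, at levels far under the median of 7.16. Fgf13, an intracellular FGF that does not act through the receptors, and Fgfr4 had interactions of 0.91 (SE 1.01) and 1.48 (SE 1.15).

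The genes whose signal over the 12 arrays was most like that of Fgfrl1 were sought among 9562 genes whose mean reached the median. They were Chpf (r = 0.870), Plekhg2 (r = 0.863), Mypop (r = 0.845), Vegfc (r = 0.838), C1qtnf6 (r = 0.830) and Trip6 (r = 0.823), each over 12 arrays that fall into 4 groups of 3. The r of these genes was 0.837 to 0.887 without YSR 1 and OR 1. Of the 8 FGF genes, the 4 that are not dim could enter this search, and their r ran from -0.52 for Fgf7 to 0.27 for Fgfr2. The 4 dim genes were outside it, with r of -0.18 to 0.25. The highest of these, that of Fgf2, came with a rho of 0.55. Chpf helps to extend chondroitin sulfate chains, Vegfc is a growth factor of lymphatic vessels and Trip6 is a LIM protein of focal adhesions.

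The interactions of these genes were -0.82 for Chpf, -1.46 for Plekhg2, -0.71 for Mypop, -1.12 for Vegfc, -0.97 for C1qtnf6 and -0.50 for Trip6, each smaller in size than that of Fgfrl1. They were chosen for their likeness, so their differences are a description. Vegfc had log2 signals of 8.51, 8.71 and 7.80 in OSR, 9.14, 9.05 and 8.94 in OR, 8.53, 8.59 and 8.13 in YSR, and 7.94, 8.03 and 8.02 in YR. As for Fgfrl1, OSR 3 lay below all YR arrays. All OR arrays of Vegfc lay above all other arrays, whereas those of Fgfrl1 overlapped the YSR and OSR arrays. Plekhg2 had 7.99, 8.51 and 7.55 in OSR, 8.58, 8.53 and 8.28 in OR, 8.24, 8.65 and 8.09 in YSR, and 7.66, 7.25 and 7.04 in YR.

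**Figure D5:**
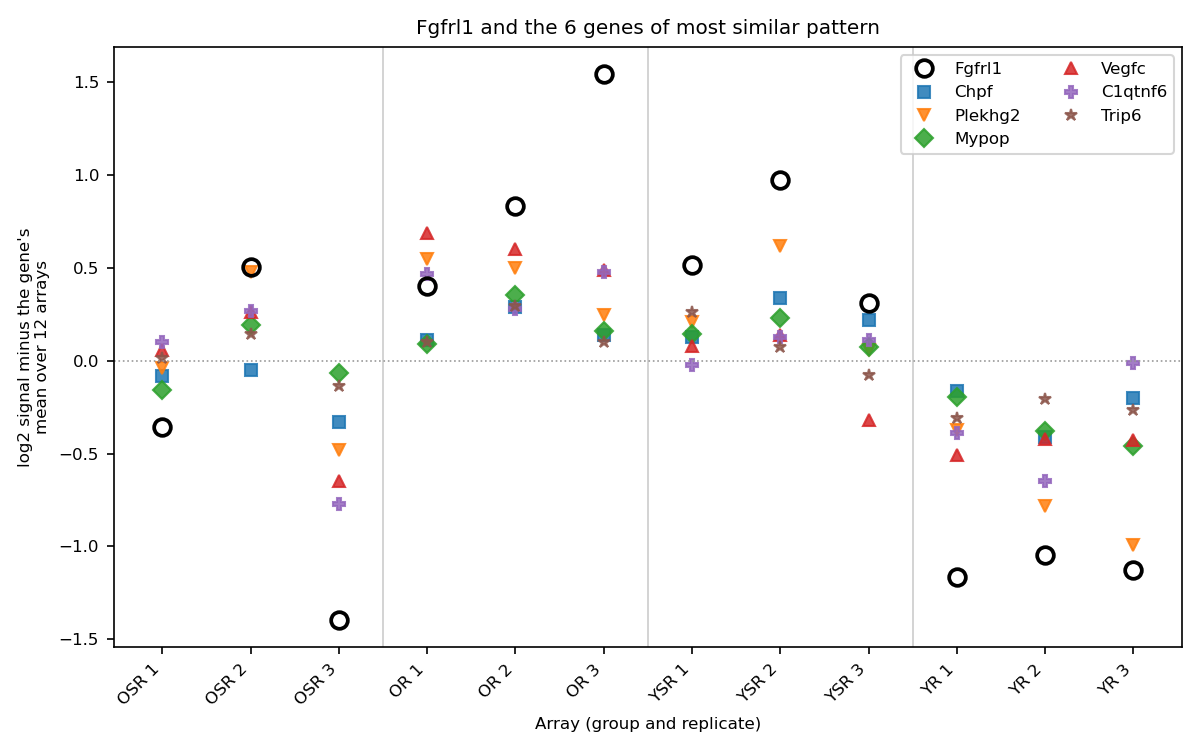
Log2 signal of Fgfrl1 (open black circles) and the 6 genes of highest r with it, on each of the 12 arrays (x axis, by group), less each gene's mean over the 12 arrays (y axis). The lowest Fgfrl1 points are those of OSR 3 and the YR arrays, and Fgfrl1 has the widest range, from 6.27 to 9.21 before centring.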

How the data were processed

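RNA from fracture hematoma, pooled from 3 animals, had been hybridized to Affymetrix rat arrays of a single colour. For 31099 probe sets the authors deposited a linear signal intensity, with every array scaled to a trimmed mean of 500.2 (2% trimmed). GCOS 1.2 is named in the processing notes, whereas the methods describe PLIER summaries, and neither those nor scan files and detection calls were used here.

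Signals were floored at 1 and converted to log2. Tests left out the 57 control probe sets. A single symbol was given by the platform annotation for 20832 probe sets, several for 436 and none for 9831, and a gene identifier tied 20764 to the rat gene list. All 12 arrays entered a fit with limma 3.58.1 (lmFit, then eBayes with a trend on intensity, in R 4.3.3), tried on simulated data first. Benjamini-Hochberg adjustment ran over all 31042 probe sets tested. Tests are two-sided, and the p-values measure the spread between pools of animals.

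Members and lists were chosen with earlier results of these data known. The text names every member with its probe sets. Of each pathway list it names up to 4 genes with an unadjusted p under 0.05 in the interaction and a highest group mean that reached the median of all probe sets, and the 2 genes of highest mean. Fgf8, Fgf5, Fgf22, Etv1 and Spry1 fall outside this rule and were named after their values were seen. The 6 genes most like Fgfrl1 by r, and bright genes of the cell marker lists, followed a rule as well. Alternatives were quantile normalization, a pseudocount of 16, no dim probe sets, no intensity trend, the arrays compared alone, the methods' test (unmoderated, on the same values), the replicate number as a block, leaving out each array, leaving out YSR 1 and OR 1, and the mean of all probe sets of a gene. The methods' test for pairs of groups was extended here to the interaction and the averaged comparisons. Plots were drawn in Python 3.11.15 (matplotlib 3.10.9).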

Additional observations from a re-analysis of the deposited data

How the results depend on the processing

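Member differences under the alternatives were tallied in OSR minus OR, YSR minus YR, the interaction and old minus young. Of these, 651 values kept their direction and side of the threshold and 51 changed sign, 33 of the latter on leaving out a single array. No member passed the adjusted test in these comparisons under any alternative. Fgfrl1 changed sign in these comparisons under none, with an interaction of -3.52 to -2.57. Where values turned, the cause was not tested. The plain limits are 3 pools per group, dim probe sets for 4 of the 9 genes, for which no value exists without dim probe sets, and 2 arrays of high Gapdh ratio. Beyond those 2 arrays, the Gapdh ratios of the YR arrays lay above those of the other groups, which no setting separates from the group.

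The same replicate numbers did not pair the arrays: over 18 pairs of arrays with the same number in different groups the deviations had a median r of 0.019 (-0.412 to 0.405), beside 0.020 over 36 other pairs. With the replicate block the interaction of Fgfrl1 was -3.06, and the count of calls was 0 in OSR minus YSR and 1 in old minus young. Of the 8 other genes, 2 (Fgfr2 and Fgf18) then had an unadjusted p under 0.05 in OSR minus OR. Over all alternatives this number was 0 to 2 in OSR minus OR, the interaction, OSR minus YSR and OR minus YR, 0 to 1 in YSR minus YR and semi-rigid minus rigid, and 0 to 3 in old minus young. No share over all probe sets under these alternatives stands beside the counts, which are a description.

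Calls over all probe sets numbered 1 in OSR minus YSR, 1 in OR minus YR and 2 in old minus young. In OSR minus YSR there were 0 under quantile normalization, no intensity trend, the arrays compared alone, the methods' test and without YSR 1 and OR 1. In OR minus YR there were 0 without the intensity trend, 14 with the arrays compared alone, 0 by the methods' test and 0 without YSR 1 and OR 1. In old minus young there were 4 without the trend, 0 by the methods' test and 1 without both arrays, which also gave 27 in YSR minus YR and 3 in semi-rigid minus rigid. Leaving out an array at a time gave 0 to 1 in OSR minus OR, OSR minus YSR and semi-rigid minus rigid, 0 to 4 in OR minus YR and 1 to 80 in old minus young, with 80 without OSR 3.

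Quantile normalization gave -0.027 for Fgf10 in YSR minus YR and -0.017 for Fgf7 in old minus young, and the pseudocount gave -0.0071 for Fgf10 in YSR minus YR. Without YSR 1 and OR 1, OSR minus OR was 0.030 for Fgfr1 and -0.075 for Fgf10. YSR minus YR was then 0.76 for Fgf2, -0.14 for Fgf10 and -0.31 for Fgf18. The interaction was then 0.0305 for Fgfr1, -0.0865 for Fgfr3 and 0.54 for Fgf1, and old minus young was -0.12 for Fgfr1 and -0.11 for Fgf7. The mean of all probe sets gave 0.25 for Fgfr1 in OSR minus OR, 0.82 for Fgfr2 and 0.85 for Fgf1 in YSR minus YR, 0.37 for Fgfr1 in the interaction and -0.041 for Fgf1 in old minus young.

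Leaving out an array at a time, OSR minus OR was -0.26 to 0.030 for Fgfr1 and -1.13 to 1.05 for Fgf10. YSR minus YR was -0.25 to 0.045 for Fgfr1, -0.19 to 0.25 for Fgfr2, -1.12 to 0.76 for Fgf2, -0.60 to 0.52 for Fgf10 and -0.31 to 1.46 for Fgf18. The interaction was -0.19 to 0.13 for Fgfr1, -0.32 to 1.57 for Fgfr3, -0.64 to 0.20 for Fgf1, -1.36 to 0.52 for Fgf2 and -1.19 to 0.99 for Fgf10. Old minus young was -0.072 to 0.087 for Fgfr1 and -0.13 to 0.20 for Fgf7.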
